A study of Mus musculus with 6 samples.

Results

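The genes described here encode the major histocompatibility complex (MHC) of the mouse, called H2, and the machinery that loads peptides onto it. They were taken from a 2-colour oligonucleotide array by name: every non-control probe whose gene name in the scanner output starts with H2-, or is B2m, Tap1, Tap2, Tapbp, Psmb8, Psmb9, Psmb10, Psme1, Psme2, Nlrc5, Cd74 or Ciita. This gave 54 of the 31829 gene names on the array, with 66 of its 39429 probes and 93 of its 43020 gene spots. A probe was tested if it was well above background on at least 3 of the 6 arrays, and 51 member probes of 43 genes met this, among 32490 probes in all. By role, the tested probes were 4 for classical class I (H2-K1, H2-D1 and B2m), 23 of 35 for other class I genes, 9 of 12 for class II, 10 of 10 for peptide processing and 3 of 3 for the regulators Nlrc5 and Ciita. The remaining 2 probes, H2-Ke2 and H2-Ke6, carry the H2- prefix because they lie in the complex, but encode no presenting molecule. The genes with no tested probe were H2-DMb2, H2-Ea, H2-M10.1, H2-M10.4, H2-M10.6, H2-M2, H2-M9, H2-T18, H2-T3, H2-T3-like and H2-Tw3, and H2-Ob, H2-Bl and H2-M10.3 each lost 1 of their probes.

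The samples were retinas of male C57BL/6 mice aged 8 weeks, taken 7 days after an injection into the vitreous of the right eye. The mice received phosphate-buffered saline (PBS), titanium dioxide nanoparticles at a dose labelled PTC, or the same particles at 10 times that dose, labelled 10PTC, with 12 mice per group. Each RNA sample was a pool of 4 retinas, and 3 pools of each dose were hybridised, 1 per array. On all 6 arrays the treated pool carried Cy5 and control RNA carried Cy3, so that a log2(Cy5/Cy3) above 0 means more signal in the treated retina. No dye swap was made, so a probe that favours a dye cannot be told apart from one that responds to the particles in either comparison with PBS. The sources used here do not say which control pool went on which array, so the comparisons of the 2 doses with PBS may share control RNA. A pool averages its 4 retinas, and in whole tissue fewer cells of a type and less RNA per cell cannot be told apart.

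Class I molecules display peptides from inside the cell to CD8 T cells. Each consists of a polymorphic heavy chain, such as H2-K1 or H2-D1, and the invariant light chain B2m. Immunoproteasome subunits (Psmb8, Psmb9, Psmb10) and the proteasome activator (Psme1, Psme2) cut the peptides, Tap1 and Tap2 carry them into the endoplasmic reticulum, and Tapbp holds the empty class I molecule at the transporter. Class II molecules (H2-A and H2-E chains) present material taken up from outside to CD4 T cells and are guided by the invariant chain Cd74. H2-DM exchanges their peptides and H2-O restrains H2-DM. Nlrc5 and Ciita are the transactivators of class I and class II genes, and interferon gamma induces most of the pathway. In the healthy retina these molecules are sparse and are found mainly on microglia and vascular cells.

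H2 genes are close relatives, so the probe letters decide what a value can stand for. The 60-base probes below are the 2 pairs of tested probes of different genes with the longest shared runs, and the capitals mark the run shared within each pair. The first pair are the dimmer H2-K1 probe, at chr17:34133984-34134043 on the minus strand of mm9, and the H2-T23 probe, which the files place at chr17:36167338-36167574 on the minus strand, a span wider than the probe. The other pair are the dimmer H2-Q2 probe, at chr17:35460007-35460066 on the plus strand, and the brighter H2-Q10 probe, at chr17:35610036-35610095 on the plus strand.
H2-K1: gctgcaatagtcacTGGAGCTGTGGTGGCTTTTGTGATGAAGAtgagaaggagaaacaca
H2-T23: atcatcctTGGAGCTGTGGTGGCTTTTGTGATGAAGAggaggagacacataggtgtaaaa
H2-Q2: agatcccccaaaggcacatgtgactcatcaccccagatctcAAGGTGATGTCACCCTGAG
H2-Q10: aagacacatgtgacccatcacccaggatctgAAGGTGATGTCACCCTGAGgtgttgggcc
The H2-K1 and H2-T23 probes share 29 consecutive bases, and their log2 ratios differed by at most 0.031 on any array. The H2-Q2 and H2-Q10 probes share 19 and differed by up to 0.415. Aligned without gaps, this second pair matches at 45 of 50 bases and the first pair at 39 of 54. The longer run and the closer values therefore did not go with the higher match over the alignment. How much of each signal came from the gene in the probe's name was not tested, and values of class I genes with such relatives are uncertain as to gene. Some positions also differ from the name. The H2-Q5 probe is placed at chr17:36246864-36247298, between the probes of H2-Bl and H2-T10 and away from the other H2-Q probes, and 1 of the 3 Psme2 probes is placed on chromosome 11 rather than chromosome 14. The dimmer H2-Q2 probe lies beside the H2-Q1 probe, at chr17:35461859-35461918, and not beside the brighter H2-Q2 probe, at chr17:35482113-35482172. The accessions listed for the H2-T9 probe lead to H2-T22 in the RefSeq table, and that of the H2-gs10 probe to H2-Q4. The array's names are kept below. Exon and UTR positions of the probes were not used here.

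The arrays had 71.0% to 85.5% of gene spots well above background and no saturated spot. Among the 66 member probes, 41 to 53 were above background in Cy3 and 42 to 53 in Cy5. PTC pools 1 and 2 were on slide 1, and PTC pool 3 and all 10PTC pools were on slide 2, so that slide and dose overlap in part. PTC pool 1 stood apart for these genes: it gave the highest log2 ratio of the 6 arrays on 40 of the 51 tested member probes (78.4%), against 23.8% of all probes. PTC pool 2 was the lowest of the PTC pools on 36 of the 51. The spread between pools was larger at PTC than at 10PTC for 46 of 51 members (90.2%), against 63% of all probes. The fit took 1 estimate of the spread of a probe for both doses. The p-values below therefore do not follow the SD printed for each dose. The spread between repeated spots was measured for 3 member probes. For the H2-K1 probe that was spotted 10 times on each array, the SD of the log2 ratio between spots of an array was 0.021 to 0.034, while the SD between pools was 0.77 at PTC and 0.15 at 10PTC. For Tap1, also spotted 10 times, it was 0.052 to 0.133, below the SD of 0.63 between PTC pools but not below that of 0.05 between 10PTC pools. For Psme1 it was 0.015 to 0.043, against 0.13 and 0.10 between pools.

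At PTC, 25 of the 51 member probes were higher than in PBS retina (49%) and 3 were lower (5.88%), at a limma Benjamini-Hochberg adjusted p under 0.05 over all probes. Over the whole array 17.1% of probes were called higher and 15.9% lower in that comparison. At 10PTC, 20 of 51 members were higher (39.2%) and 2 lower (3.92%), against 14.7% of all probes higher and 12.9% lower. The median log2 ratio of the members was 0.41 at PTC and 0.30 at 10PTC, and that of all probes was 0.00 at both. On all 6 arrays together, 31 of 51 members (60.8%) were above 0 every time, against 22.2% of all probes. Centring each array on its median in place of loess moved the calls over the whole array from 5559 higher and 5154 lower to 10191 and 5110 at PTC, and from 4763 and 4186 to 11748 and 6349 at 10PTC. For the members it gave 29 higher and 5 lower at PTC and 28 and 5 at 10PTC.

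The count at 10PTC moved with single pools and with the slide. The share of all probes called higher, 14.7% in the main fit, moved too. Without 10PTC pool 1 the count fell to 0 (2.8% of all probes) and without 10PTC pool 3 to 0 (3.1%). Without 10PTC pool 2 it was 6 (10.9%), and without PTC pool 1 it was 31 (18.4%). With the slide as a block it was 0 (2.1%), and within slide 2 it was 32 (18.7%). At PTC the count was 18 with the slide as a block (11.5% of all probes). Within slide 1, where the fit has 2 arrays, it was 0 (0.5%). Leaving out 1 pool at a time gave 17 to 31 at PTC, against 9.5% to 15.7% of all probes. Of the 27 class I probes, 13 to 15 were called higher at PTC each time. At 10PTC the class I count was 0, 6 and 0 without 10PTC pools 1, 2 and 3. It was 13 to 17 without 1 of the PTC pools, against 11.7% to 18.4% of all probes. Fitting each dose alone gave 9 members at PTC (9.3% of all probes) and 32 at 10PTC (18.7%). At 10PTC, weighting arrays by quality gave 32 (27.4%) and the scanner software's processed signals gave 12 (8.5%).

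**Figure D1:**
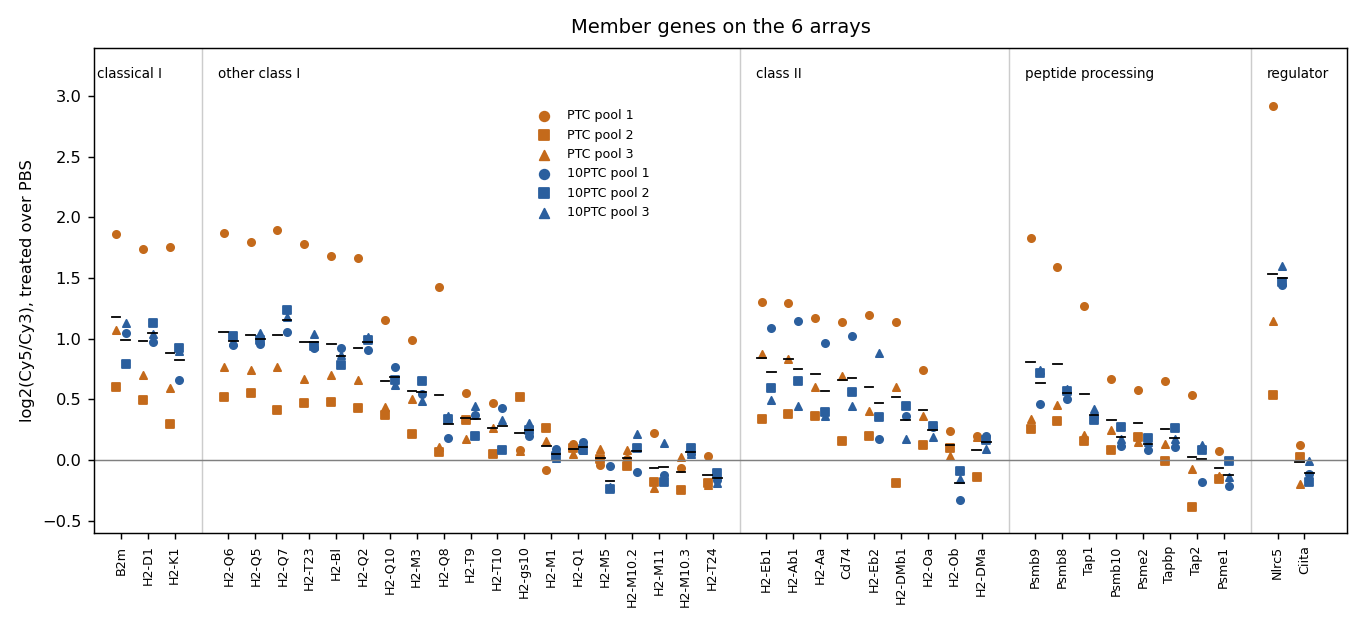
Log2(Cy5/Cy3) of the treated pool over control RNA for each member gene with a tested probe (brightest probe per gene, H2-Ke2 and H2-Ke6 left out), grouped by role and ordered by the PTC mean within each role. Each point is 1 array and the short black bars are the means of 3 pools; PTC pool 1 (orange circles) lies above the other arrays for most class I, class II and processing genes, and Nlrc5 reaches 2.92.

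The classical class I genes were higher at both doses, on all 4 probes. B2m, the light chain of every class I molecule (chr2:121978401-121978460, mm9), had log2 ratios of 1.86, 0.60 and 1.07 in PTC pools 1 to 3 and 1.05, 0.79 and 1.13 in 10PTC pools 1 to 3. All 6 were above 0, with the lowest and the highest both at PTC, so the doses overlapped. Its mean was 1.18 ± 0.64 (SD, n = 3) at PTC, or 2.26-fold over PBS, with a limma adjusted p of 0.00535. At 10PTC it was 0.99 ± 0.18 (SD, n = 3), or 1.99-fold, with an adjusted p of 0.0123.

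H2-D1 encodes a heavy chain of the classical type, and its probe lies at chr17:35403886-35403945 on the plus strand. It measured 1.74, 0.49 and 0.70 at PTC and 0.97, 1.13 and 1.04 at 10PTC. The 10PTC pools lay close together, inside the range of the PTC pools. Its means were 0.98 ± 0.67 at PTC (1.97-fold, adjusted p = 0.0105) and 1.05 ± 0.08 at 10PTC (2.07-fold, adjusted p = 0.0109). H2-K1 encodes the other classical heavy chain of this strain. Its brighter probe, at chr17:34133055-34133114 on the minus strand, measured 1.75, 0.30 and 0.59 at PTC and 0.66, 0.93 and 0.90 at 10PTC. PTC pool 1 was again far above the rest and PTC pool 2 the lowest of the 6. The means were 0.88 ± 0.77 (adjusted p = 0.0255) and 0.83 ± 0.15 (adjusted p = 0.0367), with the 10PTC call lost in 10 of 22 alternatives. The dimmer H2-K1 probe gave 0.98 ± 0.73 (adjusted p = 0.0139) and 0.99 ± 0.05 (adjusted p = 0.0169).

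Of the 23 tested probes of other class I genes, 10 were higher at each dose (43.5%), and 1 was lower at PTC and 2 at 10PTC. Over all probes 17.1% were higher at PTC and 14.7% at 10PTC. By gene, with the brightest probe of each, 9 of 19 were higher at each dose: H2-Q2, H2-Q5, H2-Q6, H2-Q7, H2-Q10, H2-T23, H2-T9, H2-Bl and H2-M3. H2-Q7, a Qa-2 antigen gene (chr17:35580315-35580374), measured 1.90, 0.42 and 0.77 at PTC and 1.06, 1.24 and 1.18 at 10PTC. All pools were above 0, and the PTC pools spread more widely than the 10PTC pools, which lay inside their range. Its means were 1.03 ± 0.78 (2.04-fold, adjusted p = 0.0147) and 1.16 ± 0.09 (2.23-fold, adjusted p = 0.0125).

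H2-Q5 measured 1.80, 0.55 and 0.75 at PTC and 0.95, 0.99 and 1.05 at 10PTC, with means of 1.03 (adjusted p = 0.00869) and 1.00 (adjusted p = 0.0127). H2-Q6, another Qa-2 gene, measured 1.87, 0.52 and 0.77 at PTC and 0.95, 1.02 and 0.97 at 10PTC, with means of 1.05 (adjusted p = 0.0103) and 0.98 (adjusted p = 0.0164). H2-Q2 measured 1.67, 0.43 and 0.66 at PTC and 0.90, 0.99 and 1.02 at 10PTC, with means of 0.92 (adjusted p = 0.0121) and 0.97 (adjusted p = 0.013). In all of these genes, as in H2-D1, PTC pool 1 was the highest and PTC pool 2 the lowest of the 6 arrays.

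H2-T23 encodes Qa-1, a nonclassical molecule read by inhibitory receptors on natural killer cells. It measured 1.78, 0.47 and 0.67 at PTC and 0.93, 0.94 and 1.04 at 10PTC, which were the values of the dimmer H2-K1 probe to within the 0.031 given above. H2-Bl measured 1.68, 0.48 and 0.70 at PTC and 0.92, 0.79 and 0.87 at 10PTC. H2-M3 encodes a molecule that presents formylated peptides, and its probe lies at chr17:37411350-37411409. Its response was smaller, at 0.99, 0.21 and 0.50 at PTC and 0.54, 0.65 and 0.49 at 10PTC, with means of 0.57 ± 0.39 (1.48-fold, adjusted p = 0.0131) and 0.56 ± 0.08 (1.48-fold, adjusted p = 0.017). H2-T9 had means of 0.35 ± 0.19 (adjusted p = 0.0136) and 0.34 ± 0.13 (adjusted p = 0.0186).

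Probes of the same gene did not always give the same direction. The brighter H2-Q10 probe measured 1.15, 0.37 and 0.44 at PTC and 0.77, 0.66 and 0.62 at 10PTC and was called higher at both doses (adjusted p = 0.0105 and 0.012). The dimmer H2-Q10 probe, at chr17:35611449-35611508, measured -0.35, -0.35 and -0.21 at PTC and -0.26, -0.17 and -0.23 at 10PTC and was called lower at both (adjusted p = 0.00413 and 0.015). These 2 probes therefore went opposite ways on every array. The 2 H2-Q2 probes were both called higher at both doses, with means of 0.92 to 1.02.

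The other 10 of these 19 genes were not called higher at either dose. H2-Q8 measured 1.43 in PTC pool 1 but 0.07 and 0.11 in PTC pools 2 and 3, and 0.18, 0.34 and 0.37 in the 10PTC pools (adjusted p = 0.115 and 0.369). Its PTC mean of 0.54 rested on pool 1. H2-T10 had means of 0.26 (adjusted p = 0.0589) and 0.28 (adjusted p = 0.0547). H2-gs10 differed from the rest of the class in its order of pools, at 0.08, 0.52 and 0.08 at PTC and 0.20, 0.25 and 0.31 at 10PTC, and was not called (adjusted p = 0.0772 and 0.0634). Means of H2-Q1, H2-M1, H2-M10.2, H2-M10.3, H2-M11 and H2-T24 lay between -0.15 and 0.11. H2-M5 had a mean of 0.02 at PTC and was lower at 10PTC, at -0.17 ± 0.11 (adjusted p = 0.0496). The 10PTC call was lost in 13 of 21 alternatives (adjusted p up to 0.345). With median centring its PTC value turned to -0.16 (adjusted p = 0.0418), and its other probe gave 0.00 and -0.01. At PTC the control channel of H2-Q1, H2-M1, H2-M10.2, H2-M10.3 and H2-M5 was above background on 1 of 3 arrays.

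**Figure D2:**
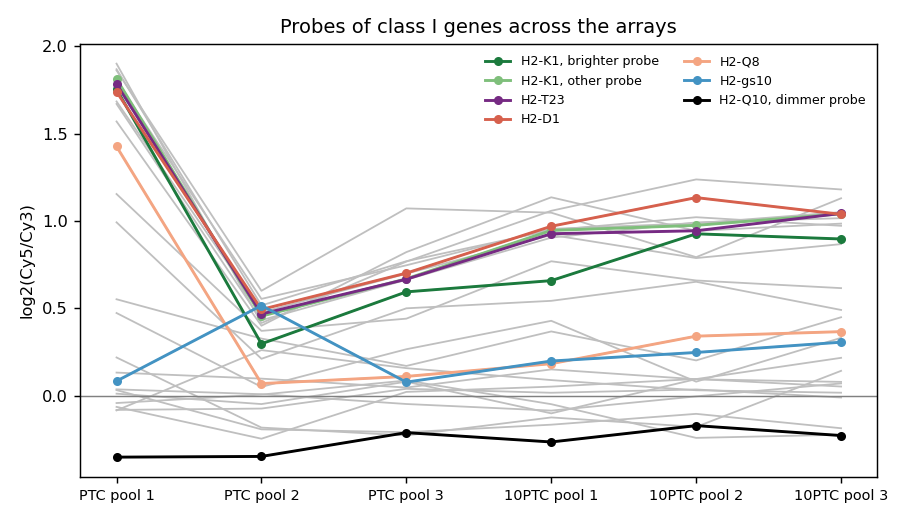
Log2(Cy5/Cy3) of the 27 tested class I probes on the 6 arrays, with named probes coloured and the rest in grey. The lines join the values of a probe and carry no order between pools; the curves of H2-T23 and the dimmer H2-K1 probe coincide, H2-Q8 is high in PTC pool 1 alone, and the dimmer H2-Q10 probe is below 0 on every array.

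Class II genes were higher at PTC on 6 of 9 probes (66.7%) and at 10PTC on 4 of 9 (44.4%), with none lower at either dose. Over all probes the shares called higher were 17.1% and 14.7%. The genes called at both doses were Cd74, H2-Aa, H2-Ab1 and H2-Eb1, which encode the invariant chain, both H2-A chains and the H2-E beta chain. H2-Eb1, the H2-E beta chain (chr17:34453075-34453134), measured 1.31, 0.34 and 0.88 at PTC and 1.09, 0.60 and 0.50 at 10PTC. All pools were above 0 and the doses overlapped, with 10PTC pool 1 the highest of its group. Its means were 0.84 ± 0.49 (1.79-fold, adjusted p = 0.0109) and 0.73 ± 0.32 (1.65-fold, adjusted p = 0.0219). Mice of this haplotype are known to make no H2-E alpha chain, and H2-Ea did not pass the filter.

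Cd74, the invariant chain, measured 1.14, 0.16 and 0.69 at PTC and 1.02, 0.56 and 0.44 at 10PTC. As for H2-Eb1, pool 1 was the highest of each dose. The means were 0.66 ± 0.49 (1.58-fold, adjusted p = 0.0252) and 0.68 ± 0.31 (1.6-fold, adjusted p = 0.0276). H2-Ab1, the H2-A beta chain, measured 1.30, 0.38 and 0.83 at PTC and 1.15, 0.65 and 0.45 at 10PTC (adjusted p = 0.0114 and 0.0204). H2-Aa, the H2-A alpha chain, measured 1.17, 0.36 and 0.60 at PTC and 0.96, 0.39 and 0.36 at 10PTC (adjusted p = 0.0152 and 0.0376). In these 4 genes pool 1 was the highest of each dose, while among the 10PTC pools the classical class I heavy chains were lowest in pool 1.

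The remaining class II genes gave smaller or less even values. H2-Oa, a chain of the H2-O inhibitor, measured 0.74, 0.13 and 0.37 at PTC and 0.27, 0.28 and 0.19 at 10PTC, and passed at PTC (adjusted p = 0.0191) but not at 10PTC (adjusted p = 0.102). H2-Eb2 measured 1.20, 0.19 and 0.41 at PTC and 0.18, 0.36 and 0.88 at 10PTC (adjusted p = 0.0489 and 0.107). The H2-Eb2 call at PTC was lost in 15 of 22 alternatives (adjusted p up to 0.281). For both genes the control channel was above background on 1 of 3 PTC arrays. H2-DMb1, the H2-DM beta chain, measured 1.14, -0.19 and 0.61 at PTC and 0.37, 0.45 and 0.17 at 10PTC and was not called (adjusted p = 0.0901 and 0.264). H2-DMa had means of 0.08 and 0.15 and H2-Ob of 0.12 and -0.19, none of them called. Without PTC pool 3 no class II probe was called at PTC, where 9.5% of all probes were called higher. No class II probe was called at 10PTC without 10PTC pool 1 (2.8% of all probes), pool 2 (10.9%) or pool 3 (3.1%). From the scanner software's own processed signals, 5 class II probes were called at PTC (14% of all probes) and 0 at 10PTC (8.5%).

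The peptide processing genes were called higher on 4 of 10 probes at PTC (40.0%), against 17.1% of all probes, and 1 of 10 at 10PTC (10.0%). The share at 10PTC lay below the 14.7% of the whole array, but with median centring it was 6 of 10, against 36.2% of all probes. It was 6 of 10 with each dose fitted alone (18.7% of all probes) and 8 of 10 with array quality weights (27.4%). Psmb8, the catalytic immunoproteasome subunit also known as LMP7, measured 1.59, 0.32 and 0.46 at PTC and 0.50, 0.57 and 0.59 at 10PTC. Every pool was above 0, and PTC pool 1 was far above the other 5. Its means were 0.79 ± 0.70 (1.73-fold, adjusted p = 0.0255) and 0.55 ± 0.05 (1.47-fold, adjusted p = 0.0875). Psmb9, the LMP2 subunit, measured 1.83, 0.26 and 0.34 at PTC and 0.46, 0.72 and 0.74 at 10PTC and missed the threshold at both (adjusted p = 0.052 and 0.112). Psmb10, the third inducible subunit, measured 0.67, 0.08 and 0.25 at PTC and 0.12, 0.27 and 0.17 at 10PTC (adjusted p = 0.0392 and 0.198), and its PTC call was lost in 13 of 23 alternatives.

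Psme2 encodes the beta subunit of the proteasome activator and has 3 tested probes. The brightest measured 0.58, 0.19 and 0.15 at PTC and 0.08, 0.18 and 0.15 at 10PTC (adjusted p = 0.0258 and 0.246). The means of the 3 probes ranged from 0.13 to 0.47 at PTC and from 0.14 to 0.30 at 10PTC. Psme1, the alpha subunit, had means of -0.07 and -0.12 and was not called. Tap1 measured 1.27, 0.16 and 0.21 at PTC and 0.36, 0.33 and 0.42 at 10PTC and was not called (adjusted p = 0.0616 and 0.181), with its control channel above background on 1 of 3 PTC arrays. Tap2 measured 0.53, -0.39 and -0.07 at PTC and -0.18, 0.09 and 0.12 at 10PTC, so that its pools lay on both sides of 0. Tapbp had means of 0.26 (adjusted p = 0.115) and 0.18 (adjusted p = 0.26). Without PTC pool 1 the class had 4 probes called at PTC (12.3% of all probes) and 7 at 10PTC (18.4%). Without PTC pool 2 it had 7 (14.8%) and 1 (16.1%).

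Nlrc5, the class I transactivator, gave the largest mean of all member probes at both doses. Its brighter probe, at chr8:97051105-97051164, measured 2.92, 0.54 and 1.15 at PTC and 1.44, 1.47 and 1.6 at 10PTC. All 6 arrays were above 0 and the 10PTC pools lay close together inside the PTC range. The means were 1.54 ± 1.24 (2.90-fold, adjusted p = 0.0177) and 1.5 ± 0.08 (2.84-fold, adjusted p = 0.0229). Its other probe, placed at chr8:97030478-97030624, measured 0.04, -0.23 and 0.00 at PTC and -0.18, -0.14 and -0.16 at 10PTC and was not called (adjusted p = 0.441 and 0.0835), so the change was seen at 1 of the 2 Nlrc5 probes. Ciita, the class II transactivator, measured 0.13, 0.03 and -0.20 at PTC and -0.12, -0.18 and -0.01 at 10PTC and was not called (adjusted p = 0.884 and 0.285). Its treated channel was above background on 2 of 3 PTC arrays.

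H2-Ke6 and H2-Ke2, which present no peptide, were slightly lower at PTC. H2-Ke6, an enzyme of steroid and fatty acid metabolism, had a mean of -0.17 ± 0.05 at PTC (adjusted p = 0.0189) and -0.07 at 10PTC (adjusted p = 0.223), and with median centring the 10PTC value turned to 0.16 (adjusted p = 0.0187). H2-Ke2, a prefoldin subunit, had -0.22 ± 0.12 (adjusted p = 0.0403) and -0.20 ± 0.14 (adjusted p = 0.0575), and its PTC call was lost in 13 of 23 alternatives. With these 2 left out, 25 of 49 probes were higher and 1 lower at PTC, and 20 were higher and 2 lower at 10PTC.

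Set side by side, the medians were highest for the 4 classical class I probes, followed by class II and peptide processing. The median log2 ratios of the classical class I probes were 1.78, 0.47 and 0.69 in the PTC pools and 0.96, 0.95 and 1.04 in the 10PTC pools. The class II medians were 1.14, 0.16 and 0.60 at PTC and 0.37, 0.39 and 0.36 at 10PTC. Those of the peptide processing probes were 0.66, 0.15 and 0.18 at PTC and 0.19, 0.23 and 0.18 at 10PTC. Classical class I exceeded class II on 6 of 6 arrays, by 0.08 to 0.68, and peptide processing on 6 of 6, by 0.33 to 1.12. Class II exceeded peptide processing on 6 of 6 as well, but by only 0.01 in PTC pool 2. Other class I genes, with medians of 0.47, 0.21 and 0.16 at PTC and 0.20, 0.20 and 0.33 at 10PTC, lay above peptide processing on 3 of 6 arrays and above class II on 1 of 6. The 27 class I probes as a whole lay above class II on 3 of 6 arrays, with medians over probes of 0.54 against 0.60 at PTC and 0.34 against 0.47 at 10PTC. The classes hold few probes, related probes share sequence, and no test was made between them.

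**Figure D3:**
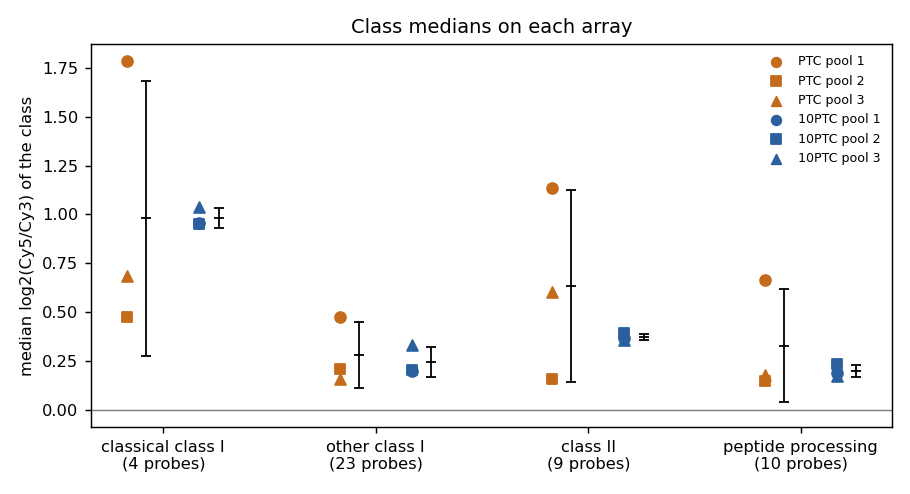
Median log2(Cy5/Cy3) over the tested probes of each class, 1 point per array, with the mean and SD of the 3 array medians of each dose beside the points in black. On each array the classical class I median lies above that of peptide processing, and PTC pool 1 is the highest point in every class.

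No member was called different between the doses. At a limma adjusted p under 0.05 the contrast of 10PTC with PTC called 0% of all 32490 probes higher and 0% lower, and 0 of the 51 members. At an unadjusted p under 0.05 it reached 2 of 51 members (3.92%) against 2604 of all probes (8.01%). The 2 members were H2-Ob, lower at 10PTC by 0.32 (adjusted p = 0.588), and H2-M5, lower by 0.19 (adjusted p = 0.61); they were singled out after their values were seen. Weighting arrays by quality called 138 probes higher and 123 lower over the array but none of the members. The width of the intervals set what could be seen, since the median half-width of the 95% limma interval was 0.37 over the members. For B2m the difference of 10PTC minus PTC was -0.19, with an interval from -0.84 to 0.47. For H2-D1 it was 0.07, from -0.60 to 0.74, and for Nlrc5 it was -0.03, from -1.24 to 1.18. For H2-Eb1 it was -0.11, from -0.69 to 0.46, and for Cd74 it was 0.01, from -0.56 to 0.59. A dose effect of up to these bounds in either direction therefore fits inside the intervals.

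**Figure D4:**
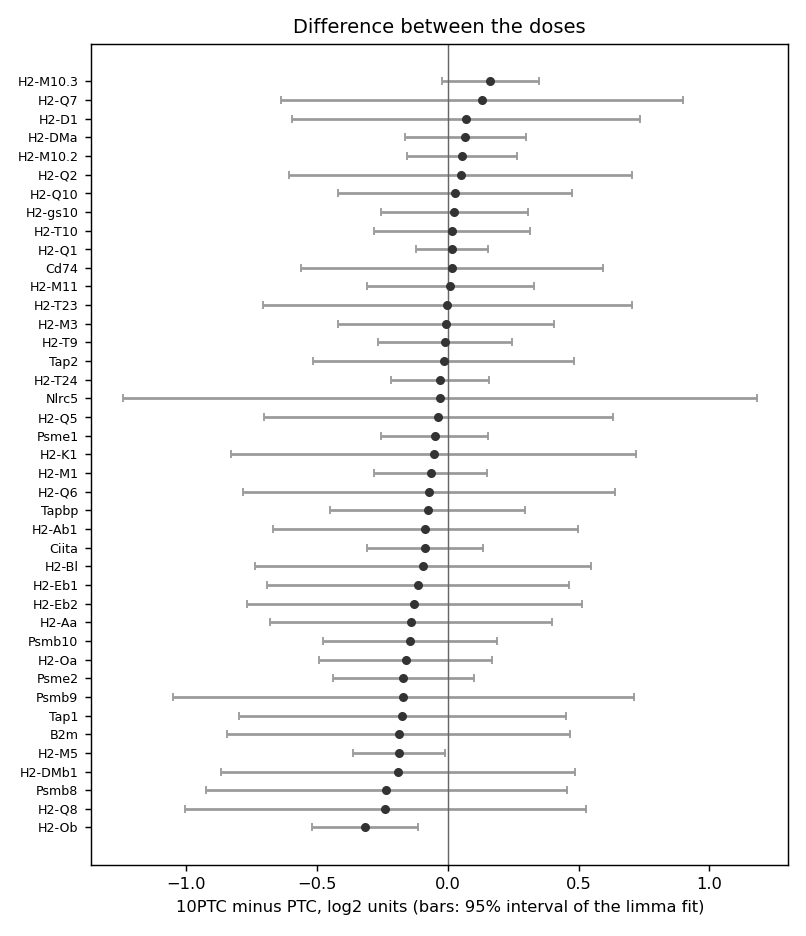
Difference of 10PTC minus PTC in log2 units for each member gene with a tested probe (brightest probe, H2-Ke2 and H2-Ke6 left out), with bars for the 95% interval of the limma fit. Most points lie near 0, the intervals of H2-Ob and H2-M5 do not cross 0, and the bar of Nlrc5 is the widest.

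The promoters of some members are shown next. Windows of 250 bases before to 50 after the RefSeq start site (GRCm38.p6) were found for 36 of the 54 member genes. They were searched on both strands for the Y box core CCAAT, bound by NF-Y, for TGACG, the core of the CRE-like X2 box, for GAAGTGAAA, an interferon response element, and for TTCNNNGAA, the interferon gamma activated site. The letters of TGACG and GAAGTGAAA were chosen after the sequences had been seen. No 2 matches of different motifs overlapped in member windows, and a pair of TGACG matches overlapped in H2-Aa, where they form TGACGTCA. The 150 bases before the start site are printed for 4 class I and 2 class II genes whose probes were called higher at both doses, 5′ to 3′ along the gene, with matches of the first 3 motifs on either strand in capitals. They lie at chr17:34000348-34000497 on the minus strand for H2-K1, chr17:35262944-35263093 on the plus strand for H2-D1, chr17:35439005-35439154 on the plus strand for H2-Q7 and chr2:122147537-122147686 on the plus strand for B2m. Those of class II lie at chr17:34287824-34287973 on the minus strand for H2-Aa and chr17:34305717-34305866 on the plus strand for H2-Eb1.
H2-K1: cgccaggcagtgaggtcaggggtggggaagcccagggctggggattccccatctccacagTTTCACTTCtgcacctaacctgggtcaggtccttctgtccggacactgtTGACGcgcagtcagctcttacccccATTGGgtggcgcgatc
H2-D1: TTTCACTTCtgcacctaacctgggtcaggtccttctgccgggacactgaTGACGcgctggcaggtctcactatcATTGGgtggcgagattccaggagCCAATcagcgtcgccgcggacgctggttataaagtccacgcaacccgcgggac
H2-Q7: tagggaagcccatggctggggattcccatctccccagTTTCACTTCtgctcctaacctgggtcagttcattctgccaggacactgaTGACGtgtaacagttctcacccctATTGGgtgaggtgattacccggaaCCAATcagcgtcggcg
B2m: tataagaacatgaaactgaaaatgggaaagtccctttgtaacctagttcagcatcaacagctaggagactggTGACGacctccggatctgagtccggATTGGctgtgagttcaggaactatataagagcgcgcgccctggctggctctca
H2-Aa: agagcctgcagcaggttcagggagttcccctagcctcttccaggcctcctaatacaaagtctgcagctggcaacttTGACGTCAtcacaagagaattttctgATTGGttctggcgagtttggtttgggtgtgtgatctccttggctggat
H2-Eb1: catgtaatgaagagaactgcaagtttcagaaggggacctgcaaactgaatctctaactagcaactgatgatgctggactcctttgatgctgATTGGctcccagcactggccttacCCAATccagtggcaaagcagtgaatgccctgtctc
The H2-K1 and H2-D1 stretches share a run of 37 bases that includes the interferon motif, which is written TTTCACTTC on this strand. The printed H2-D1 stretch starts at this motif, so the cut at 150 bases sets where the run begins, and bases before it were not compared. The H2-Q7 stretch holds the same order of motifs, and its longest run shared with H2-K1 is 15 bases. The printed genes are a selection from those called higher at both doses. In others of these, the same 150 bases held 5 matches in H2-M3, 2 in H2-Q6 and 1 each in H2-Q2 and H2-T23. The windows of H2-K1, H2-D1 and B2m all hold both CCAAT and TGACG, against 10.0% of all genes. So do 6 of 17 windows of other class I genes and 1 of 8 of class II. The 6 are H2-M3 and H2-Q7, called higher at both doses, and H2-M2, H2-M10.1, H2-M10.3 and H2-M10.4, which were untested or not called.

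The Y box core CCAAT was present in 29 of 36 member windows (80.6%), against 41.1% of the windows of 27025 genes. It was found in 8 of 8 class II windows and 3 of 3 classical class I windows, but in 3 of 7 peptide processing windows. TGACG was present in 13 of 36 member windows (36.1%) against 23% of all genes, with 3 of 3 in classical class I and 1 of 8 in class II. GAAGTGAAA was present in 6 of 36 (16.7%) against 0.6% of all genes, in H2-D1, H2-K1, H2-M3, H2-Q10, H2-Q6 and H2-Q7, and in 0 of 8 class II windows. TTCNNNGAA was present in 4 of 36 (11.1%) against 9.6%. The H2 windows are related by descent and are not independent examples, and a match is a description of letters, not of a bound site.

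Psmb9 and Tap1 are transcribed away from each other from start sites 226 bases apart, so a single stretch serves as the promoter of both. The 225 bases between the start sites, at chr17:34187331-34187555 in the direction of Tap1, hold 1 CCAAT next to the Psmb9 start and 1 TGACG, marked in capitals.
Psmb9-Tap1: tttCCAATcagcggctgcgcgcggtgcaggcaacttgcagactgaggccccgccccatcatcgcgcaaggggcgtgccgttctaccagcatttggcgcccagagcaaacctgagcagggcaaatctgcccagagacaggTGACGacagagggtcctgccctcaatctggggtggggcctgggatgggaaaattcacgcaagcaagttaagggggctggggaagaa
In both genes PTC pool 1 was the highest array, at 1.83 for Psmb9 and 1.27 for Tap1, and neither gene was called.

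Beyond the members, 42 further genes of antigen presentation were listed, 39 were on the array and 37 passed the filter. Of these 37, 15 were higher and 1 lower at PTC, and 14 were higher and 0 lower at 10PTC, with a median log2 ratio of 0.11 at both doses. Over all probes the shares called were 17.1% higher and 15.9% lower at PTC and 14.7% and 12.9% at 10PTC. The class II route held the largest value: Ctss, the protease that trims the invariant chain, measured 2.48, 1.31 and 2.05 at PTC and 1.73, 1.49 and 1.82 at 10PTC. All 6 arrays were far above 0, with means of 1.94 ± 0.59 (adjusted p = 0.000952) and 1.68 ± 0.17 (adjusted p = 0.00195). Psme3, a proteasome activator subunit outside the interferon-induced pair, measured 1.15, 0.96 and 0.79 at PTC and 0.86, 0.83 and 0.99 at 10PTC (adjusted p = 0.000486 and 0.000976). Its PTC pools lay closer together than those of any classical class I probe.

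The transcription factor Irf8, of macrophages and dendritic cells, measured 1.79, 0.54 and 1.05 at PTC and 1.15, 1.13 and 1.23 at 10PTC (adjusted p = 0.00532 and 0.00621). Of the 3 listed costimulatory molecules, Cd80 and Cd86 were higher at both doses, with means of 0.55 and 0.50 for Cd80 (adjusted p = 0.00161 and 0.00302) and 0.46 and 0.41 for Cd86 (adjusted p = 0.00329 and 0.0066). Cd40 was not called, at 0.14 (adjusted p = 0.134) and -0.05 (adjusted p = 0.579). Calr, a chaperone of newly made class I chains, was the gene that was lower at PTC, at -0.25, -0.43 and -0.37, and it measured 0.05, 0.15 and 0.01 at 10PTC. Its limma adjusted p was 0.00336 at PTC and 0.34 at 10PTC. The difference between the doses was not called (adjusted p = 0.528), and 0% of all probes were called for it. Irf1, a transcription factor induced by interferon, had means of 0.86 and 0.63 (adjusted p = 0.00952 and 0.0324). Jak1, Jak2, Ifngr1, Ifngr2 and Rfx5 and the constitutive proteasome subunits Psmb5, Psmb6 and Psmb7 were not called at either dose. Ifng did not pass the filter.

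Most markers of microglia and macrophages were higher at both doses. Of the 8 listed, 8 passed the filter and 7 were higher at each dose, against 17.1% of all probes at PTC and 14.7% at 10PTC. The median log2 ratios of the list were 1.13, 0.49 and 0.75 in the PTC pools and 0.52, 0.57 and 0.71 in the 10PTC pools. The marker not called was Tmem119, with means of 0.18 and 0.17 (adjusted p = 0.102 and 0.118). PTC pool 1 was the highest and PTC pool 2 the lowest of the 6 arrays for the list median, as for classical class I. Not every marker kept this order. Itgam was highest in PTC pool 2 (0.47), and P2ry12 was highest in 10PTC pool 3 (0.60) and lowest in 10PTC pool 2 (0.07). Csf1r was lowest in 10PTC pool 1 (0.32). The part of microglia and macrophages in the MHC result was not tested. Markers of other presenting or infiltrating cells are given next. Of the dendritic cell markers 6 of 7 passed the filter, with array medians of 0.00 to 0.26. Itgax, also made by activated microglia, was higher at both doses (0.70 and 0.82, adjusted p = 0.00527 and 0.00434), Ccr7 was called higher at PTC (1.16, 0.33 and 0.20, adjusted p = 0.034), with its control channel above background on 1 of 3 arrays, and Flt3 was lower at PTC (-0.37, adjusted p = 0.0256). For B cells 4 of 5 passed and 0 were called at either dose. For T cells 6 of 7 passed, with Lck higher and Cd3e lower at PTC and Cd3e and Cd4 lower at 10PTC. For natural killer cells 3 of 4 passed and 0 were called, and for neutrophils 5 of 5 passed, with Csf3r higher at both doses and Mpo higher at 10PTC. The neutrophil genes S100a8 and S100a9 were not called, but they too were highest in PTC pool 1. S100a8 measured 2.63, -0.18 and 1.11 at PTC (adjusted p = 0.074) and 0.83, 0.19 and -0.06 at 10PTC (adjusted p = 0.612). S100a9 measured 2.55, -0.64 and 0.66 at PTC (adjusted p = 0.234) and 0.64, -0.20 and -0.66 at 10PTC (adjusted p = 0.931). Their part in the MHC values of PTC pool 1 was not tested. The defining markers Xcr1, Ms4a1, Cd3g and Ncr1 did not pass the filter.

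Markers of rod photoreceptors were examined as well, and 6 of 6 passed the filter. Passing does not identify the tissue, since all 5 skeletal muscle markers passed too. The rod marker medians were -0.32, 0.31 and 0.00 in the PTC pools and 0.14, 0.05 and 0.02 in the 10PTC pools. The lowest value was in PTC pool 1, and Sag was called higher at both doses. Of the 4 Muller glia markers, Slc1a3 was higher and Glul lower at both doses and Aqp4 was higher at 10PTC. Of the 5 endothelial markers, Cldn5 was lower at PTC and none was called at 10PTC. All 5 skeletal muscle markers were lower at both doses, with list medians of -2.89 and -2.41, with more signal in the control channel than in the treated channel. The part of these differences in the MHC values was not tested.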

How the data were processed

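Retinal RNA from mice given PBS or titanium dioxide nanoparticles was measured on 2-colour Agilent arrays of mouse 60-base probes, 1 array per pool, 3 pools per dose. The deposited values are scanner intensity values per spot for Cy3 and Cy5, written by Feature Extraction 10.7.3.1 with protocol GE2_107_Sep09 and mm9 positions per the file headers; the submitters' processing notes name Agilent Feature Extraction 9.3.2.1. The authors' deposited table of processed values, log2 ratios of Cy5 over Cy3 by their slope of 3.317 to 3.324 against the scanner software's deposited log10 ratios (r = 0.983 to 1) and with column medians of -0.075 to 0.039, was used as an alternative; its centring stays unknown here.

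Mean signals were corrected with normexp (offset 50) on the median local background and normalized by loess within each array in limma 3.58.1 (R 4.3.3), with control spots at weight 0 and outlier spots, 185 to 274 per array, left out. Spots of a probe were averaged. Probes well above background, by the scanner's flag on at least 50% of their spots in either channel, on at least 3 of 6 arrays were tested. A linear model with a coefficient per dose was fitted over all 32490 such probes with empirical Bayes moderation (4 residual and a median of 3.61 prior degrees of freedom), and p-values were Benjamini-Hochberg adjusted over them, with a threshold of 0.05. The number of arrays limits the precision, and the p-values measure the spread between these pools only. Both doses shared 1 estimate of that spread per probe, so the standard error of a member was the same at both. For H2-D1 it was 0.20 at each dose, beside SDs of 0.67 at PTC and 0.08 at 10PTC. On simulated data with a spread per probe taken from the arrays, 83% of probes changed 1.5-fold and 95% changed 2-fold were recovered at PTC, with 10 false calls. The simulation drew independent noise with the same spread at both doses and changed a small part of the probes. It held no outlying pool, slide or shared control RNA, so its rates cannot be carried over to the members. A gene with several probes was described by its probe of highest mean intensity. Genes given on every array were B2m, H2-D1, H2-Eb1 and Cd74 and up to 4 genes of smallest p per class and dose; other tested members could be named with their values, and up to 8 further pathway genes. The members, lists and rules were chosen with earlier results of these data known. Probe sequences and positions came from the scanner output, and promoters from a RefSeq table (GRCm38.p6); no genome was used. Alternatives covered the background correction, normalization, filter, moderation, slide, replicate block and each pool left out.

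The replicate numbers were checked for pairing: deviations of same-numbered arrays correlated at -0.27, 0.139 and 0.181 over all tested probes, so the numbers were not taken to pair the samples.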

Additional observations from a re-analysis of the deposited data

How the results depend on the processing

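Counts of member probes called higher were recomputed under 23 alternatives at PTC, 22 at 10PTC and 21 for the difference between the doses, which stayed at 0 in all 21. At PTC the count of 25 became 9 with each dose fitted alone and 0 within slide 1, and leaving out each pool gave 17 to 31. At 10PTC the count of 20 became 12 with the scanner software's processed signals, 12 with the authors' deposited table, 32 with each dose fitted alone, 32 with array quality weights, 0 with the slide as a block and 32 within slide 2, and leaving out each pool gave 0 to 31. The shares of all probes called higher moved as well. At PTC they were 17.1% in the main fit, 9.3% with each dose fitted alone and 0.5% within slide 1. At 10PTC they were 14.7% in the main fit, 2.1% with the slide as a block, 18.7% within slide 2 and 27.4% with array quality weights. The causes were not tested. With the replicate number as a replicate block the counts were 23 and 20. The PTC value of H2-M5 turned to -0.16 and the 10PTC value of H2-Ke6 to 0.16 with median centring. Among the values of single member probes, for both doses and their difference, 2483 stayed on the same side of the threshold. Another 213 lost the call, 113 gained it and 2 reversed. An uncalled value could change sign and still count as staying, as that of Tap2 did at PTC (-0.23 to 0.23). The 2483 include every value of the difference between the doses, where no member was called. Signal over background limited H2-Oa, H2-Eb2 and Tap1, whose control channel was above it on 1 of 3 PTC arrays, and groups of 3 are too small for a check of single outlying pools.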
